A study of Mus musculus with 5 samples.

Results

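Rag1, Rag2 and Dntt were followed across single cells of mouse bone marrow in 5 RNA libraries. They were taken by gene symbol as the lymphocyte-specific genes that cut and extend antigen-receptor DNA, and all 3 were found among the 27998 genes of the files. The libraries came from aged mice (over 20 months old, replicates 2 and 3) and young mice (10 to 12 weeks old, replicates 1, 2 and 3). Every mouse was of the Nes-GFP strain, which carries a fluorescent reporter driven by Nestin regulatory sequence, and no other allele or agent is named. Cells lacking CD45 and carrying CD31 were sorted from preparations of the inner bone surface, frozen, thawed and captured in droplets for counting of transcript 3' ends by unique molecular identifier (UMI). The labels call the replicates biological and do not say how many animals each library holds, so p-values measure the spread between libraries.

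RAG1 and RAG2 proteins form the recombinase that cuts DNA at the recombination signals beside V, D and J gene segments, the first step in building antibody genes. Terminal transferase, the product of Dntt, adds bases without a template to the cut ends, and the general end-joining machinery then seals them. In marrow B cells, Rag genes are known to be used in rounds separated by cell division: for the heavy chain in pro-B cells and for the light chain in small pre-B cells, while Dntt is best known from the heavy-chain round.

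Rag1 (ENSMUSG00000061311) lies at chr2:101638282-101649501 on the minus strand of GRCm38 and has 2 exons in GENCODE release M21. Rag2 (ENSMUSG00000032864) lies at chr2:101624718-101632529 on the plus strand with 3 exons. The neighbours point towards each other, and 5752 bases separate their ends. Dntt (ENSMUSG00000025014) lies at chr19:41029275-41059525 on the plus strand with 12 exons. The annotated gene B230118H07Rik shares 80 bases of exon with the first exon of Rag1 on the same strand and has 208 bases opposite the last exon of Rag2. Strand cannot separate reads of the shared 80 bases, which lie at the 5' end of Rag1, whereas 3' ends were counted. For the 208 bases it could, but the sources used here do not state whether counting used strand. Reads in these stretches therefore cannot be assigned with certainty.

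The 250 bases before the start of each gene are shown because the members moved together only in part. They come from RefSeq (GRCm38.p6), where all 3 members matched an entry, and cover chr2:101649533-101649782 on the minus strand, chr2:101624462-101624711 on the plus strand and chr19:41029025-41029274 on the plus strand. Capitals mark every match to CANNTG, the E-box motif, which reads the same on both strands.
Rag1: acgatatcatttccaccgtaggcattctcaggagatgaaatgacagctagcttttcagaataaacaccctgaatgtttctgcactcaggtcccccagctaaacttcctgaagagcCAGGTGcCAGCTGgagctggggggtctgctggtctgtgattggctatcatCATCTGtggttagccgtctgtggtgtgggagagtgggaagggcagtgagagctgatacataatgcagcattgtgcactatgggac
Rag2: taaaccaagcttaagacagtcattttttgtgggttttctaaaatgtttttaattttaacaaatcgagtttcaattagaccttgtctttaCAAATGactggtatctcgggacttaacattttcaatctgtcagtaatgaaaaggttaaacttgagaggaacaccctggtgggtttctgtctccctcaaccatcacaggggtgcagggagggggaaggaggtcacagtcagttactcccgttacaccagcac
Dntt: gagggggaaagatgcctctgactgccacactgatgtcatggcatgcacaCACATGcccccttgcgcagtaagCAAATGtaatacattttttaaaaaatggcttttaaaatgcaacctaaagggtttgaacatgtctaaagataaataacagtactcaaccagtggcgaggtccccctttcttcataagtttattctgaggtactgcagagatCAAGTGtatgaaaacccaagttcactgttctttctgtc
The E-box letters occurred 3 times before Rag1, at 135, 128 and 85 bases from the start, once before Rag2 at 161 bases, and 3 times before Dntt at 201, 178 and 38 bases. Of all 32851 promoters of the same length, 66.2% held at least 1 such match. Searched on both strands, TGGGAA and AGGAAG each matched 1 time before Rag1 and at 0 places before Rag2 and Dntt, against 21.6% and 29.5% of all promoters with a match. TATAAA and TGTTTAC matched at 0 places in any of the 3 windows, against 12.4% and 3.17% of all promoters. A match is a description of letters and not a bound site. The GC content was 50.8% before Rag1, 41.2% before Rag2 and 41.6% before Dntt, against a median of 52.4% over all promoters.

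After filtering, 2116 of 3384 barcodes remained, with median UMIs per cell of 1889.5 to 4212.5 by library and library totals of 935656 to 5900751 UMIs. Although the sort is labelled endothelial, 1905 of the 2116 cells (90.0%) fell in clusters called B lineage by the rule given below. An endothelial-like group held 38 cells. Of the barcodes, 26 occurred in more than 1 library before filtering and 5 among kept cells. B-lineage cells were divided by 10 cell-cycle genes after each cell was thinned to 1000 UMIs. A cell with at least 2 of the 10 detected was called dividing (616 cells) and one with 0 or 1 was called resting (1289 cells). Young replicate 1 stood apart, with 515 dividing cells, 73.0% of its B lineage, against 8.03% to 9.87% in the other 4 libraries. It also held 185 of the 211 cells outside the B lineage. Near the threshold lay 122 cells with exactly 2 of the 10 genes and 229 with exactly 1, of which young replicate 1 gave 92 and 85. The resting cells of that library still carried cell-cycle transcripts, with 394 CPM of Top2a and 167 CPM of Mki67, against 17.7 to 59.7 CPM and 10.9 to 17.7 CPM in the resting cells of the other 4 libraries. In it, 28.4% of resting cells fell in the dividing cluster 3 described below, against 0.282% to 2.71% elsewhere. The states were therefore less distinct in young replicate 1. Without it, the changes with division given below were -2.20 for Rag1 and -1.92 for Dntt on the log2 scale.

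In CPM, Rag1 and Dntt were lower in dividing than in resting B-lineage cells, by more than 3-fold, whereas Rag2 did not pass the test. This comparison asks how transcripts of the recombinase and of terminal transferase follow the division of B-cell precursors. UMIs were summed per library and state, scaled to CPM (the count of a gene scaled to a fixed total per sum), and tested with edgeR with the library as a block. CPM is a share of the UMIs in a sum and not a number per cell. Dividing cells held a median of 4111.5 UMIs, against 2329 in resting cells, and the change in UMIs per cell was not tested. Of the 3 members, 2 passed, both lower, where 22.9% of all 6205 tested genes passed, 12.9% higher and 10% lower. All 3 passed the filter on low counts.

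Rag1, the subunit that holds the catalytic site of the recombinase, had 48.1, 30.9, 46.5, 29.96 and 61.2 CPM in the dividing cells of aged replicates 2 and 3 and young replicates 1, 2 and 3. The resting cells of the same libraries had 233, 147, 113, 223 and 135 CPM. The states did not overlap, and the highest dividing value lay below the lowest resting one. How many of all tested genes separate the states this fully was not counted, here or for Dntt below. Rag1 was lower in dividing cells, with a log2 fold change of -1.84 ± 0.25 (SE, n = 5 libraries; edgeR quasi-likelihood test, Benjamini-Hochberg adjusted p = 0.000300). Leaving out any 1 library kept this change between -2.20 and -1.64.

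Dntt, the template-free DNA polymerase, had 165, 86.5, 45.4, 44.9 and 51.0 CPM in the dividing cells, in the same library order. The resting cells had 338, 322, 213, 308 and 401 CPM. Again every dividing value lay below every resting one, and the highest dividing value was that of aged replicate 2. The log2 fold change was -2.06 ± 0.24 (SE, n = 5; edgeR adjusted p = 0.000122). The resting level came mostly from clusters 1 and 8, described below, which averaged 1220 and 302 CPM and held 21.0% and 9.08% of resting cells. Resting clusters 0, 5, 7 and 9 averaged 10.2 to 16.0 CPM, against 88.7, 16.9 and 12.7 CPM in dividing clusters 3, 4 and 2. The part of this makeup in the Dntt change was not tested.

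Rag2, the partner subunit that reads a histone mark of active chromatin and is required for cutting, had 82.5, 30.9, 37.7, 40.0 and 0 CPM in the dividing cells. The resting cells had 122, 54.6, 32.6, 74.2 and 29.3 CPM. The states overlapped, and in young replicate 1 the dividing value was the higher one. The value of 0 in young replicate 3 rests on 25 dividing cells with no Rag2 UMI, which limits the share of cells with a UMI at this depth to 12.0% by a floor of 3 cells, or 13.7% by the exact binomial bound, and sets no limit on expression. The log2 fold change was -0.48 ± 0.30 (SE, n = 5; edgeR adjusted p = 0.271). It passed the threshold without young replicate 1, at -0.80 (edgeR adjusted p = 0.0342), and when states were taken from clusters, at -0.70 (edgeR adjusted p = 0.0201).

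**Figure D1:**
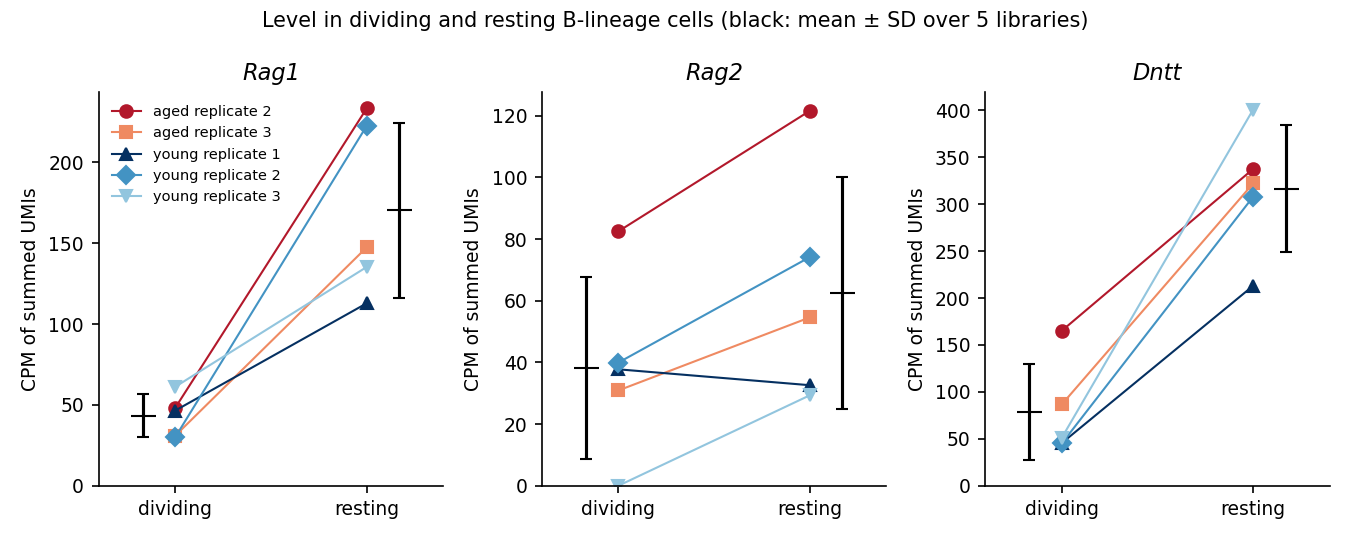
CPM of Rag1, Rag2 and Dntt from UMIs summed over dividing and over resting B-lineage cells, 1 line per library, with the mean and SD over 5 libraries in black. The lines of Rag1 and Dntt all lie lower in dividing cells, while Rag2 lies between 0 and 82.5 CPM in dividing cells and between 29.3 and 122 CPM in resting cells.

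The difference between Rag1 and Rag2 was examined within libraries, a comparison added after the values had been seen. Rag1 gave 36.8%, 50%, 55.2%, 42.9% and 100% of the summed Rag1 and Rag2 UMIs in the dividing cells of aged replicates 2 and 3 and young replicates 1, 2 and 3. In the resting cells it gave 65.7%, 73.0%, 77.6%, 75.0% and 82.2%. In 4 of 5 libraries the Rag1 share was lower in dividing cells, and the exception, young replicate 3, had 6 Rag1 UMIs and 0 Rag2 UMIs there. The mean difference was -17.7 ± 20.3 points (SD, n = 5; two-sided exact sign-flip permutation test, p = 0.125), and it was -26.6 ± 4.71 points over the 4 libraries left without young replicate 3, a value given with no test because that library was left out after it was seen. The smallest p that 5 libraries allow is 0.063. On the log2(CPM + 10) scale, the change of Rag1 minus that of Rag2 was -0.99 ± 1.10 (SD, n = 5; exact p = 0.125). The change of Dntt minus that of Rag2 was -1.27 ± 0.70, lower in 5 of 5 libraries (SD, n = 5; exact p = 0.063). The last pair, Dntt minus Rag1, differed by -0.27 ± 1.07 (SD, n = 5; exact p = 0.75). These 3 pairs were the ones compared.

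Rag1 and Dntt were lower in cells just inside the threshold, with 2 of the genes, than just outside it, with 1, both in young replicate 1 and in the other 4 libraries pooled. These pooled levels have no spread over libraries and are a description. In young replicate 1, Rag1 had 158 and 76.6 CPM in cells with 0 and 1 of the 10 genes, and 35.2, 38.0, 42.9, 50.9 and 87.2 CPM in cells with 2, 3, 4, 5 and 6 or more. In the other 4 libraries it had 191 and 162 CPM with 0 and 1 gene, and 35.04, 30.1, 30.6, 56.5 and 64.6 CPM along the same steps. The last of these steps holds 72 cells of young replicate 1 and 9 of the others, so no order is read among the dividing steps. Dntt had 317 and 131 CPM with 0 and 1 gene and 23.7 to 60.6 CPM in the dividing steps of young replicate 1, and 329.5 and 398 CPM and 48.5 to 129 CPM in the other 4 libraries. Rag2 had 33.9 and 31.5 CPM with 0 and 1 gene in young replicate 1, within the 20.1 to 59.7 CPM of its dividing steps. In the other 4 libraries Rag2 had 75.3 and 60.5 CPM with 0 and 1 gene and 30.1 to 64.2 CPM in the dividing steps.

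The share of cells with a UMI depends on depth, and dividing cells held a median of 4111.5 UMIs against 2329 in resting cells. Without thinning, Rag1 was detected in 117 of 616 dividing cells (19.0%, 95% exact binomial interval 16.0 to 22.3) and in 413 of 1289 resting cells (32.04%, 29.5 to 34.7). Rag2 was detected in 18.2% of dividing and 15.1% of resting cells, and Dntt in 9.58% of dividing and 22.1% of resting cells. At 1000 UMIs per cell, Rag1 was detected in 5.68% of dividing and 17.5% of resting cells, Rag2 in 4.55% of dividing and 5.66% of resting cells, and Dntt in 3.41% of dividing and 14.0% of resting cells. The intervals cover counting error only, and the pooled dividing cells are mostly those of young replicate 1. As means over libraries, the unthinned shares were 19.7 ± 5.23% in dividing and 33.3 ± 10.9% in resting cells for Rag1, 21.2 ± 16.9% in dividing and 15.6 ± 9.38% in resting cells for Rag2, and 17.9 ± 14.5% in dividing and 22.0 ± 5.29% in resting cells for Dntt (SD, n = 5). The unthinned difference was -13.5 points for Rag1, lower in 4 of 5 libraries (n = 5; exact p = 0.125), and -4.04 points for Dntt, lower in 4 of 5 (n = 5; exact p = 0.5625), with aged replicate 2 higher in dividing cells by 18.3 points. Over libraries, the thinned Rag1 share was lower in dividing cells by a mean of -13.5 ± 8.12 points, in 5 of 5 libraries (SD, n = 5; two-sided exact sign-flip permutation test, p = 0.063). The differences were -0.77 points for Rag2 (n = 5; exact p = 0.5625) and -6.61 points for Dntt, lower in 4 of 5 libraries (n = 5; exact p = 0.1875). The unthinned Rag2 share was higher in dividing cells by 5.55 points (n = 5; exact p = 0.25), the opposite sign to the thinned share.

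Clustering, from which the 3 members were left out, separated Dntt from the Rag genes. Each level below is a description over clusters, because clusters were built from genes that vary with the members. Dntt was concentrated in cluster 1, which was also led by Vpreb2, Vpreb1 and Igll1, genes of the surrogate light chain. In that cluster Dntt had 1336, 969, 1093, 1650 and 1050 CPM in aged replicates 2 and 3 and young replicates 1, 2 and 3. Cluster 1 held 14.4% of B-lineage cells and 78.7% of their Dntt UMIs, and 81.8% of its cells had a Dntt UMI, with a median of 3 and a maximum of 23 UMIs per positive cell. Cluster 8, led by Rpl3l and with 83 of its 122 cells in aged replicate 2, averaged 302 ± 113 CPM of Dntt (SD, n = 3 libraries). Cluster 3, a dividing cluster led by Nrgn and Ung, averaged 88.7 ± 58.6 CPM (n = 4). The other 6 clusters averaged 10.2 to 16.9 CPM of Dntt, and no order among them stands beyond their spread.

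Rag1 was spread more widely. It averaged 379 ± 205 CPM in cluster 7 (SD, n = 4), a shallow cluster with a median of 1284 UMIs per cell, 226 ± 44.9 CPM in cluster 0 (n = 4), led by Cd2 and Ly6d, and 211 ± 76.8 CPM in cluster 1 (n = 5). Cluster 8 followed at 187 ± 56.7 CPM (n = 3) and cluster 5, led by the MHC class II genes Cd74 and H2-Aa, at 151 ± 144 CPM (n = 3). Among these 5 clusters, the library values of neighbours in this order overlapped. Cluster 0 lay below cluster 7 in 3 of the 4 libraries they shared. The dividing clusters 2, 4 and 3 had 78.4 (1 library), 44.9 ± 11.6 (n = 3) and 19.3 ± 12.99 CPM (n = 4). Cluster 9, led by Ms4a1, which encodes CD20 of later B cells, had 30.6 ± 44.4 CPM (n = 4).

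Rag2 ran over a narrower range, with 109 ± 53.5 CPM in cluster 8 (SD, n = 3), 71.0 ± 27.7 in cluster 0 (n = 4), 69.7 ± 38.4 in cluster 7 (n = 4) and 65.1 ± 31.8 in cluster 1 (n = 5). The dividing cluster 2 had 59.3 CPM in its single library, above the 55.6 ± 34.2 CPM of cluster 5 (n = 3), and dividing clusters 3 and 4 had 41.2 ± 16.8 (n = 4) and 12.9 ± 22.3 CPM (n = 3). Cluster 9 was again low, with 7.05 ± 14.1 CPM (n = 4). Both Rag genes thus reached across clusters 0, 1, 5, 7 and 8, where Dntt was near its lowest level in clusters 0, 5 and 7.

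**Figure D2:**
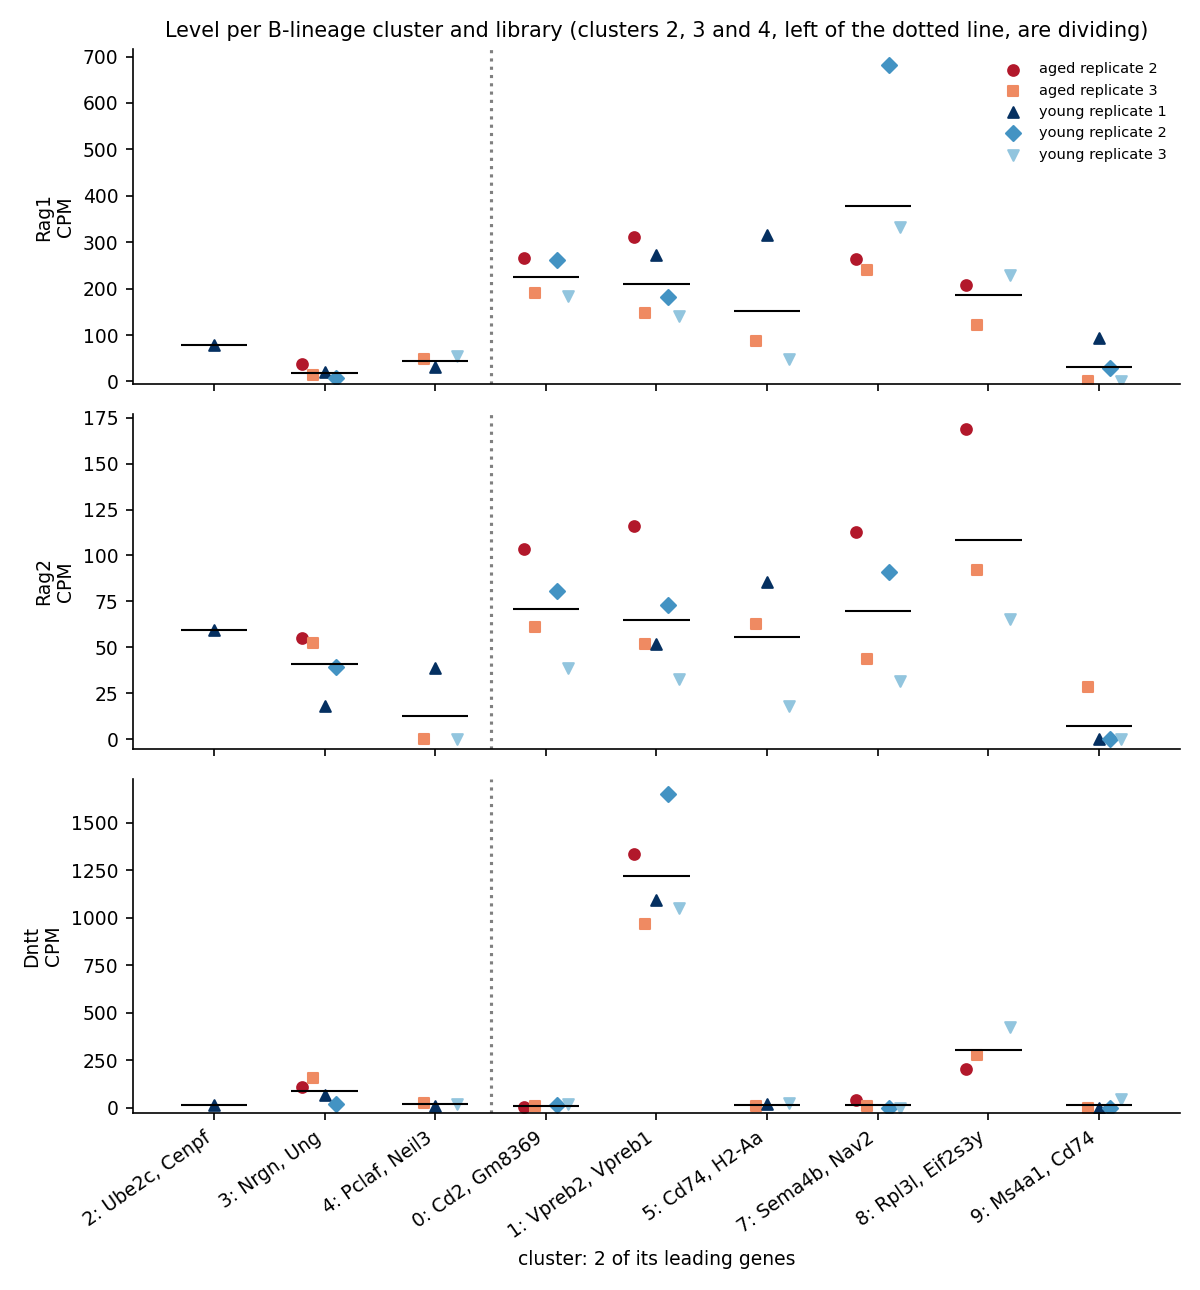
CPM of each member per B-lineage cluster, 1 point per library with at least 10 cells in the cluster and a line at the mean, dividing clusters 2, 3 and 4 to the left of the dotted line. Dntt stands at 969 to 1650 CPM in cluster 1, while Rag1 and Rag2 are spread over clusters 0, 1, 5, 7 and 8.

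Likeness to other genes was measured by Pearson's r of log2(CPM + 10) over 31 sums of cluster and library, among 3101 genes with a mean of at least 50 CPM. The sums share libraries and depth, so r is given as a description. Dntt was most like Igll1 (r = 0.93), Vpreb2 (0.92), Gm30948 (0.90), Gmfg (0.89) and Vpreb1 (0.87). Rag1 was most like Klhl6 (0.84), Il16 (0.84), Sec63 (0.83), Ebf1 (0.82) and Clint1 (0.81), of which Ebf1 encodes a factor required for B-cell identity. Rag2 was most like Cox14 (0.70), Gm37065 (0.69), Xrcc6 (0.67), Pon2 (0.66) and Smap2 (0.66), where Xrcc6 encodes the Ku70 end-binding protein of end joining. Among themselves the members were less alike, with r = 0.57 for Rag1 and Rag2, 0.32 for Rag2 and Dntt, and 0.18 for Rag1 and Dntt.

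Single cells were then read for more than 1 member, against the number expected from the product of the shares within each library. No test was made, since cells share library and depth, and deeper cells hold more UMIs of every gene. In resting cells, Rag1 and Rag2 were both detected in 78 cells where 72.5 were expected, a ratio of 1.08, with odds ratios of 0.79 and 3.35 in aged replicates 2 and 3 and 0.41, 1.56 and 1.27 in young replicates 1, 2 and 3. The recombinase partners therefore had no common direction across libraries. Rag1 and Dntt were both detected in 124 resting cells where 90.1 were expected, a ratio of 1.38, and the odds ratio was above 1 in 5 of 5 libraries. After thinning, 43 cells held both where 30.1 were expected, but young replicate 2 had 3 against 3.58 (odds ratio 0.87). Within clusters, counted over dividing and resting cells together, the counts differed in direction. There were 102 cells against 90.9 expected in cluster 1 (ratio 1.12), 5 against 2.89 in cluster 0 (1.73) and 14 against 6.20 in the dividing cluster 3 (2.26). There were 16 against 19.4 in cluster 8 (0.83) and 2 against 2.56 in the dividing cluster 2 (0.78). Clusters 4, 5, 7 and 9 held at most 2 such cells each. Rag2 and Dntt were both detected in 55 resting cells against 42.6 expected. Their odds ratio was also above 1 in 5 of 5 libraries, from 1.04 to 2.23. After thinning, it was 0.71 in aged replicate 2 and 0.90 in young replicate 2, and above 1 in the others. In dividing cells the counts were 23 against 21.3 expected for Rag1 and Rag2, 19 against 11.7 for Rag1 and Dntt, and 13 against 12.7 for Rag2 and Dntt. After thinning, the dividing counts were 1 against 1.43, 2 against 0.948 and 2 against 1.13 for the same pairs, too few to read a ratio from. All 3 genes were detected together in 6 dividing cells (0.974%) and 29 resting cells (2.25%), and none of them in 377 dividing cells (61.2%) and 625 resting cells (48.5%).

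**Figure D3:**
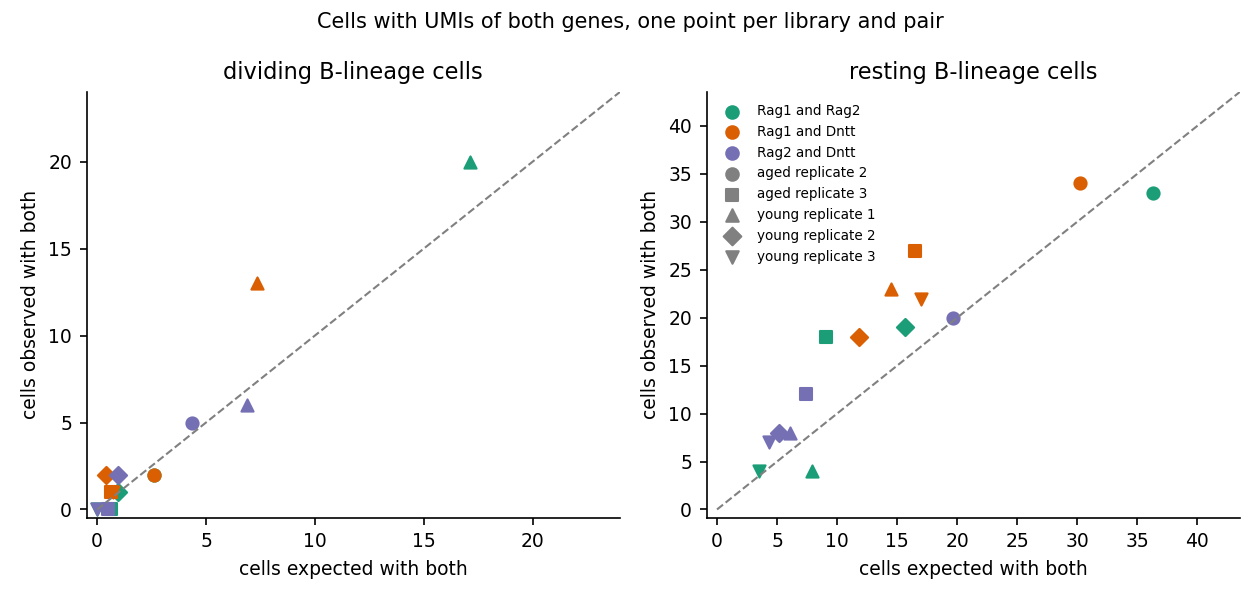
Observed against expected numbers of cells with UMIs of both genes, for dividing (left) and resting (right) B-lineage cells, 1 point per library and pair, with the dashed line at equality. Without thinning, the 5 points of Rag1 and Dntt in resting cells and the 5 of Rag2 and Dntt lie above the line. Those of Rag1 and Rag2 lie on both sides of it.

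Genes that act with the members, or are known to regulate them, were described from lists chosen with earlier results of these data known. Over all 6205 tested genes, 12.9% were higher and 10% lower in dividing cells. Of 7 tested end-joining genes and cofactors out of 12 listed, 2 were higher and 2 lower in dividing cells, and 3 did not pass. The higher ones were Hmgb2 (log2 fold change 2.32 ± 0.22, SE) and Hmgb1 (1.58 ± 0.17), DNA-bending proteins that assist RAG cutting in vitro and that also serve general chromatin roles. The lower ones were Xrcc6 (-1.35 ± 0.21) and Paxx (-1.30 ± 0.32), a partner of the Ku proteins. Lig4, the ligase of end joining, had -0.51 ± 0.27, Polm -0.53 ± 0.29 and Dclre1c, the hairpin-opening nuclease Artemis, -0.42 ± 0.36. The median of the list was -0.51, against -0.06 over all tested genes.

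Of 17 tested transcription regulators, 0 were higher, 9 were lower and 8 did not pass, with a median of -0.68, where 10% of all tested genes were lower. Lower were Ebf1 (-0.89 ± 0.13), Ets1 (-0.81 ± 0.16), Foxp1 (-0.86 ± 0.18), Satb1 (-1.17 ± 0.25), Lef1, Pax5, Bcl11a, Irf8 and Foxo1 (-0.68 ± 0.19), a forkhead factor known to drive Rag transcription. Ikzf1, which encodes Ikaros, had -0.08 ± 0.15. All 4 genes of the surrogate light chain list were lower, with Vpreb2 at -1.88 ± 0.21, Vpreb1 at -1.33 ± 0.15, Igll1 at -1.09 ± 0.12 and Vpreb3 at -0.34 ± 0.09. The 8 B-lineage markers share Ebf1 and Pax5 with the regulators and Vpreb3 with the surrogate light chain list. Of the 8, 7 were lower and 1, Cd24a, was higher, with a list median of -0.72. The part of these lower B-lineage transcripts in the values of the members was not tested.

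Among 5 tested genes that act on RAG2 protein, which is known to be marked by cyclin A and Cdk2 for destruction at the entry to S phase, 4 were higher and 1 did not pass. They were Ccna2 (3.93 ± 0.47), which also belongs to the dividing rule, Skp2 (2.68 ± 0.48), Ccne1 (2.57 ± 0.52) and Cdk2 (1.86 ± 0.24), and Cdkn1b had -0.62 ± 0.28. The dividing state was set by cell-cycle genes, so higher levels of other cell-cycle genes were built into the comparison. These 4 higher values therefore say nothing about RAG2 protein. Of the 6 tested genes of the DNA break response, H2afx (3.14 ± 0.30) and Rad50 (0.86 ± 0.28) were higher and Pim2 (-1.34 ± 0.37) was lower. The same limit applies to H2afx, a leading gene of the dividing cluster 2. Of the genes listed around the Rag genes, B230118H07Rik (-1.73 ± 0.46, edgeR adjusted p = 0.0163) and Traf6 (-0.91 ± 0.26, edgeR adjusted p = 0.0232) could be tested, and both were lower. The annotated B230118H07Rik spans Rag1 and Rag2. It had 1, 1, 22, 0 and 2 UMIs in the dividing cells of aged replicates 2 and 3 and young replicates 1, 2 and 3. B230118H07Rik shares sequence with the first exon of Rag1 and lies opposite part of the last exon of Rag2, so its value is uncertain.

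**Figure D4:**
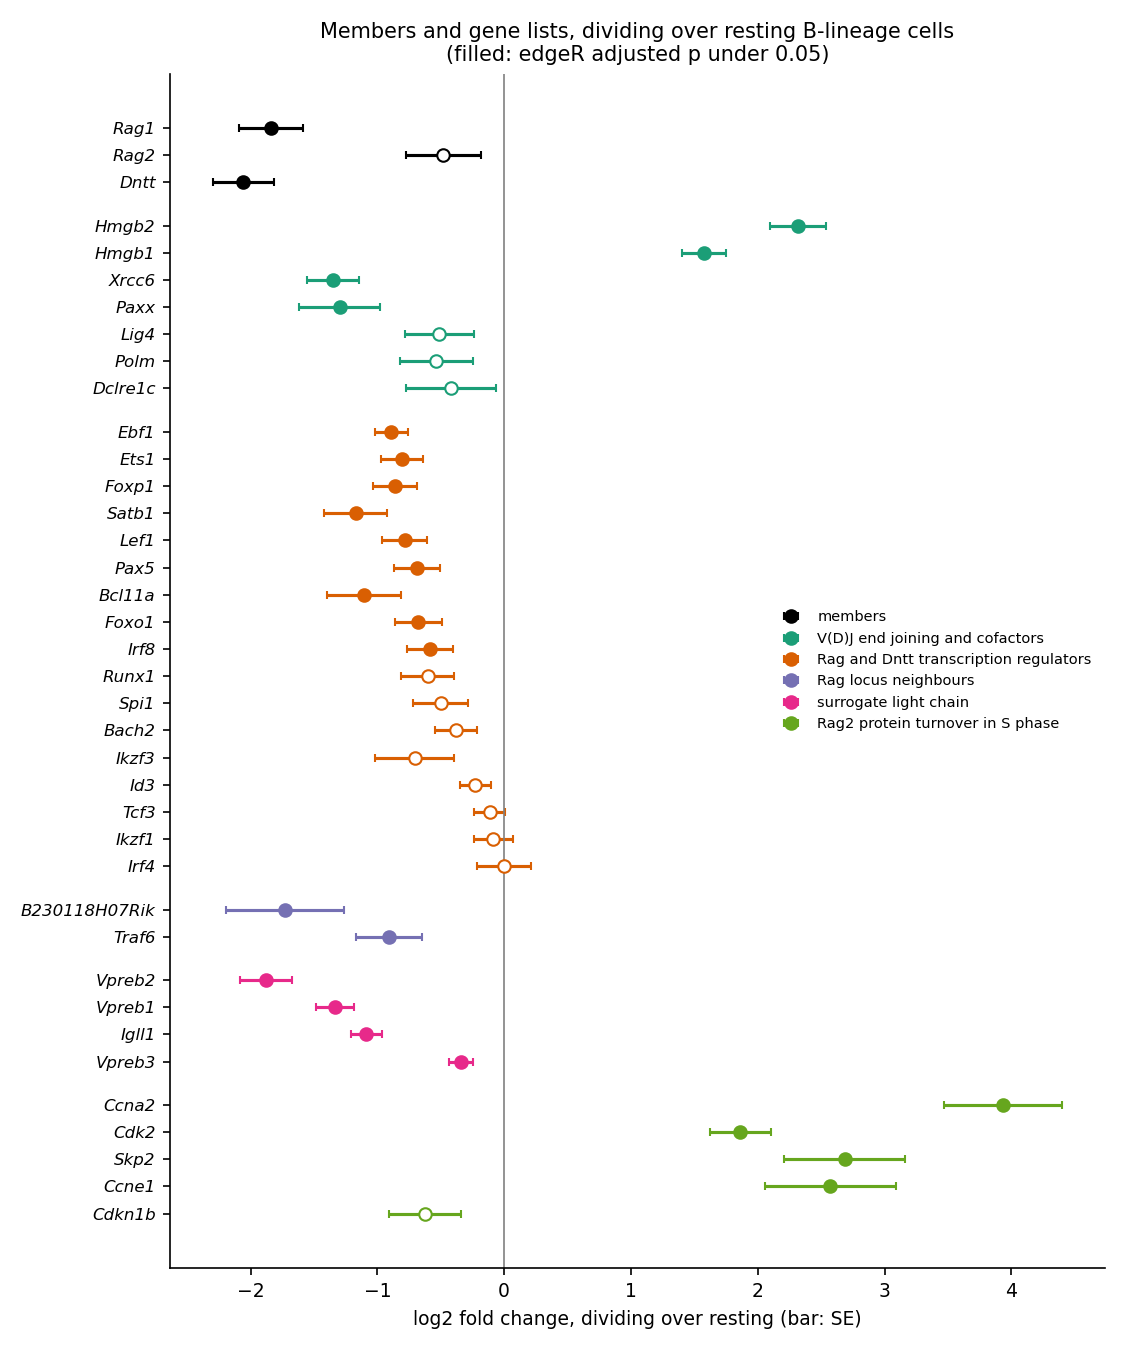
Log2 fold change with its SE, dividing over resting B-lineage cells, for the 3 members and the tested genes of 5 lists, with filled points for edgeR adjusted p under 0.05. Rag1 and Dntt lie at -1.84 and -2.06, near Vpreb2 at -1.88, and Rag2 at -0.48 is open.

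With age, no member passed the test in either state, and the design is too small for a share to do so. In resting cells 0 of 7135 genes (0%) passed in edgeR, where 133 had p under 0.05 before adjustment, and 0 passed in DESeq2, where 93 did. Rag1 averaged 190.4 ± 60.8 CPM in aged and 157 ± 58.0 CPM in young libraries (SD, n = 2 and 3), with the value of each library given above for resting cells. Its log2 fold change, aged over young, was 0.17 ± 0.33 (SE, n = 2 and 3; edgeR adjusted p = 1.00). Dntt averaged 329.9 ± 10.9 CPM in aged and 307 ± 93.9 CPM in young libraries, a change of -0.01 ± 0.32 (SE; edgeR adjusted p = 1.00). Rag2 averaged 88.1 ± 47.4 CPM in aged and 45.4 ± 25.01 CPM in young libraries, a change of 0.85 ± 0.44 (SE; edgeR adjusted p = 1.00). Rag2 was 0.23 without aged replicate 2, its highest library, and 1.30 without young replicate 2. The resting cells differed in makeup between libraries, since cluster 0 held 37.2% and 25.6% of them in aged replicates 2 and 3 and 2.11%, 61.2% and 20.0% in young replicates 1, 2 and 3. Cluster 8, where Rag2 was highest, held 30.6% and 4.23% of them in aged replicates 2 and 3 and 0%, 3.98% and 5.26% in young replicates 1, 2 and 3. The part of this makeup in the Rag2 values was not tested. Within cluster 1, which held Dntt, the changes with age were 0.11 for Rag1, 0.61 for Rag2 and -0.14 for Dntt. With 2 aged and 3 young libraries, an exact permutation test cannot give a p below 0.1. At that limit, the thinned share of resting cells with Rag2 was 13.2% and 5.35% in aged replicates 2 and 3 and 4.74%, 2.99% and 1.75% in young replicates 1, 2 and 3, with no overlap between the ages (two-sided exact permutation test, n = 2 and 3, p = 0.1). The share of all genes that part the ages in this way was not counted. Without thinning the ages overlapped, and the difference was 8.08 points (exact p = 0.5). The thinned shares of Rag1 and Dntt in resting cells gave exact p-values of 1.0 and 0.7. In all, 6 thinned shares were compared between ages, 3 genes in each state.

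In dividing cells 0 of 2879 genes (0%) passed in edgeR, where 122 had p under 0.05 before adjustment, and 0 passed in DESeq2, where 39 did. Of the members only Dntt passed the filter on low counts, with 165 and 86.5 CPM in aged replicates 2 and 3 and 45.4, 44.9 and 51.0 CPM in young replicates 1, 2 and 3. Both aged values lay above the 3 young ones. How many of all tested genes part the ages this way was not counted. The log2 fold change was 1.36 ± 0.43 (SE, n = 2 and 3; unadjusted p = 0.00272, edgeR adjusted p = 0.652). The aged values rest on 24 UMIs in 23 cells and 14 UMIs in 31 cells. Without aged replicate 2 the change was 0.84. Rag1 and Rag2 were left out of the fit by the filter, but their shares could be compared. After thinning, Rag1 was detected in 0% and 0% of dividing cells in aged replicates 2 and 3 and in 6.02%, 4.55% and 12.0% in young replicates 1, 2 and 3 (exact p = 0.1). Rag2 was detected in 8.70% and 6.45% in the aged and in 4.47%, 4.55% and 0% in the young libraries (exact p = 0.1). Neither gene overlapped between ages, in opposite directions, and each share outside young replicate 1 rests on at most 3 positive cells. For these shares too, the number of all genes that part the ages was not counted. Without thinning the ages overlapped, with exact p-values of 0.7 for Rag1 and 0.5 for Rag2. The thinned Dntt share gave an exact p of 0.3. On the log2(CPM + 10) scale, the change with division itself differed between aged and young libraries by -0.44 for Rag1 (two-sided exact permutation test, n = 2 and 3, p = 0.4), 0.27 for Rag2 (exact p = 0.7) and 1.05 for Dntt (exact p = 0.2).

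Outside the B lineage, Dntt and the Rag genes parted. The 211 such cells came mostly from young replicate 1, so values are given for that library, with no test. Free RNA in the droplets was not measured. For comparison, Cd79a, a B-cell receptor gene, reached 4.97% to 12.1% of its resting B-lineage level in these groups. Rag2, at 1 or 2 UMIs per group where detected, reached up to 45.0%, in the basophil and mast-like group. In the 46 monocyte-like cells, with a median of 10924.5 UMIs, Rag1 and Rag2 had 0 UMIs, which limits the share of these cells with a UMI to 6.52% by the same floor or 7.71% by the exact binomial bound, not the share that express the genes, and Dntt had 2 UMIs. The endothelial-like cells, the cells named by the sort, numbered 38 over all libraries with a median of 3348.5 UMIs, and held 2 Rag1, 1 Rag2 and 1 Dntt UMIs. Of the 22 of them from young replicate 1, 36.4% had a Cd79a UMI. There Rag1 stood at 15.7% and Rag2 at 27.2% of their resting B-lineage levels, against 9.41% for Cd79a. These values rest on 2 Rag1 UMIs and 1 Rag2 UMI, and whether they are free RNA was not tested. An unnamed group of 27 cells, led by Cxcl2, Ccl4, Nr4a1, Ccl3 and Flt3, held 95 Dntt UMIs in 14 cells (51.9%, exact binomial interval 31.9 to 71.3), against 3 Rag1 and 2 Rag2 UMIs. In the 24 of these cells from young replicate 1, Dntt stood at 420 CPM, 197% of the resting B-lineage level of that library, while Cd79a stood at 12.1%, Rag1 at 12.0% and Igll1 at 5.11%. Rag2 stood at 27.7% there, from 2 UMIs. In these cells Dntt, unlike the other genes given here, was thus above its resting B-lineage level. A second unnamed group of 24 cells, led by Gcnt2 and Lgals3, held 23 Dntt UMIs in 3 cells and 0 UMIs of either Rag gene, and the 34 neutrophil-like cells held 27 Dntt UMIs, 25 of them in 1 cell.

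**Figure D5:**
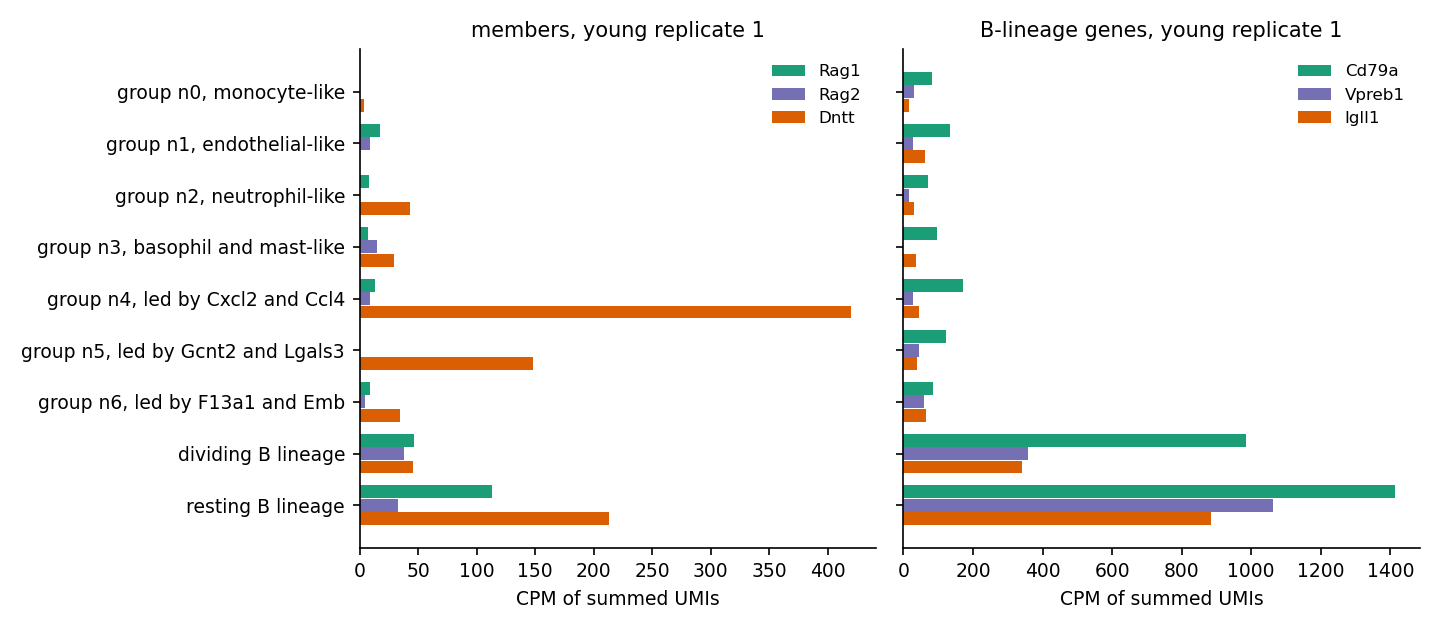
CPM in young replicate 1 of the 3 members (left) and of Cd79a, Vpreb1 and Igll1 (right), for 7 groups outside the B lineage above the dividing and resting B-lineage cells. The group led by Cxcl2 and Ccl4 has 420 CPM of Dntt with 171.6 CPM of Cd79a, whereas resting B-lineage cells have 213 CPM of Dntt.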

How the data were processed

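UMI counts per gene and barcode were used as deposited by the authors, 1 table per library. Cell Ranger and mm10 are named per the submitters' processing notes, which also list R 3.5.2, edgeR 3.24.3 and DESeq2 1.22.2. The sources used here state neither the Cell Ranger version nor the barcode rule. No column was left unused (0 columns). A reference table of names matched 27645 of 27998 identifiers. Barcodes with at least 500 genes, 1000 UMIs and at most 10% mitochondrial UMIs were kept. Library totals ranged from 935656 to 5900751 UMIs. scanpy 1.11.5 and leidenalg 0.10.2 clustered the cells on 2000 variable genes without the members, with 30 components, 15 neighbours and resolution 0.8. A cluster was B lineage with at least 5 of 8 markers detected and no marker of another class among its 10 leading genes, a rule set after the clusters were seen. All 8 were detected in every cluster, so the leading genes decided. The markers were found in a mean of 74.3% to 88.1% of cells per B-lineage cluster, against 44.6% and 66.9% in clusters 6 and 10, which were left out. Scrublet marked 49 cells (2.32%), which stayed in.

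UMIs were summed per library and state and tested with edgeR 4.0.16 (quasi-likelihood, TMM, filterByExpr, Benjamini-Hochberg over all tested genes, threshold 0.05) in R 4.3.3, with DESeq2 1.42.0 as an alternative. The SE is the log2 fold change over the square root of F. Shares used exact sign-flip or label permutation over libraries, after thinning to 1000 UMIs per cell, and 3 cells were taken as the upper limit behind a count of 0. On simulated counts the procedure recovered 96.6% of genes changed by 2 log2 units for dividing over resting (5916 genes), 65.1% for age in resting cells (6820 genes) and 87.4% for age in dividing cells (2608 genes). Other alternatives changed scaling, filters, doublets, depth, the state rule, cluster resolution and the libraries included. Named genes were the members, up to 4 tested genes of smallest p of each list and those past the threshold, and for each member the 5 genes of highest r. Further tested list genes were named after their values were seen. The members and lists were chosen with earlier results of these data known.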

Additional observations from a re-analysis of the deposited data

Results flagged for a closer look

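After thinning to 1000 UMIs, Dntt was detected in 21.7% of the 23 dividing B-lineage cells of aged replicate 2, against 2.52% to 4.55% in the dividing cells of the other 4 libraries. The gap to the nearest library took most of the range of the 5 values. Chance marks about 1 in 20 such groups, and 14 groups of values were examined.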

How the results depend on the processing

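Rag1 and Dntt stayed lower in dividing cells and past the threshold under every alternative run for them. The count of genes called there was 1419; it was 840 with every barcode of at least 500 UMIs, 472 after thinning to 1000 UMIs and 2497 with states from clusters, 801 without aged replicate 2, 828 without aged replicate 3, 817 without young replicate 2, and at most 2035 over left-out libraries. Rag2 passed at -0.80 without young replicate 1 and at -0.70 with states from clusters, and ranged from -0.80 to -0.36 over left-out libraries. The cause was not tested. After thinning, Rag2 was not tested, having failed the filter.

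With age in resting cells, 0 genes were called, against 54 with no filter and 16 with the replicate block; left-out libraries gave 0 throughout. Rag1 reversed at -0.019 after thinning, -0.17 with states from clusters and, chosen after seeing the data, -0.024 in cluster 0 and -0.87 in cluster 7, and ranged from -0.13 to 0.43 over left-out libraries. Dntt reversed at 0.039 without doublets and 0.049 with every barcode of at least 500 UMIs, and ranged from -0.16 to 0.23. None of these values passed. In dividing cells, 5 genes were called with no filter, 2 with the replicate block and 0 to 4 over left-out libraries; thinning left no member to test. Same-numbered libraries of the ages share only a number. Their deviations correlated at 0.24 (replicate 2) and 0.25 (replicate 3) in resting cells, and at 0.17 and 0.09 in dividing cells. With 2 aged libraries, the deviations of 1 mirror those of the other, so the 2 pairs are not independent. Under the replicate block the change with age was 0.04 for Rag1, 0.73 for Rag2 and -0.14 for Dntt in resting cells. Without the library block, division gave 1321 calls and left the members on their side of the threshold.

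The Rag2 share difference turned to 5.55 points without thinning, and ranged from -1.35 to 0.16 over left-out libraries. The change with division between ages ranged from -0.29 to 0.78 for Rag2, and Dntt minus Rag1 ranged from -0.61 to 0.089. Outside young replicate 1 a library had 22 to 31 dividing cells, and few held a member's UMI, which limits every value there.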
